A study of Homo sapiens with 10 samples.

Results

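The LSD1-CoREST-HDAC complex was described here in NB4 cells by the transcript levels of 8 genes that encode its subunits, KDM1A, RCOR1, RCOR3, HDAC1, HDAC2, PHF21A, HMG20B and ZMYM2. They were chosen by name among the 19975 protein-coding rows of tables with 60603 genes, each symbol matched exactly 1 row, and none was lost to a filter. GSE1, the gene that the study knocked down, was described beside them. NB4 is an established human line of acute promyelocytic leukemia. RNA was measured by mRNA-seq in 2 experiments with 5 groups of 2 replicates each. In the knockdown experiment, cells were transduced with lentivirus made from pLKO.1 puro without an insert (EV) or with the hairpin shA1 or shB2 against GSE1, and were harvested after 48 h. In the LSD1 inhibition experiment, cells were treated for 24 h with DMSO or with 2 µM MC2580, an LSD1 inhibitor that the titles of its samples spell MC280. All 10 samples came from the same parental line, so they describe 1 cell line only.

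LSD1, the product of KDM1A, is a flavin-dependent demethylase that removes methyl groups from lysine 4 of histone H3. It acts on nucleosomes only when held by a CoREST protein, and the same scaffold binds the deacetylases HDAC1 and HDAC2, so that a single complex removes both methyl and acetyl marks from active chromatin. In blood cells the complex is brought to DNA by repressors with a SNAG domain such as GFI1 and GFI1B, and LSD1 inhibitors release the block of differentiation in several types of myeloid leukemia. GSE1 is a chromatin protein that copurifies with this complex and with other HDAC1 and HDAC2 complexes.

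The quantity available for every gene was the base mean, which is the mean over all libraries of an experiment of read counts divided by a size factor. It pools the groups (EV, shA1 and shB2 over 6 libraries, or DMSO and MC2580 over 4 libraries), and so it carries no spread between replicates and no difference between treated and control cells. The base means of all genes summed to 40543130 in the knockdown experiment and to 41201112 in the LSD1 inhibition experiment. Effects of the hairpins and of MC2580 on the members were not analysed here, and the fall of GSE1 that would check the hairpin labels was not examined. To compare genes, each base mean was divided by the length of the gene's representative transcript in kilobases and scaled so that all genes of a table summed to 1000000. This value is called the level below. Because pooled means have no error over samples, neighbours in the order of levels cannot be said to differ beyond replicate spread.

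All 8 members were detected in both experiments, and their levels spanned a 22.5-fold range in the knockdown experiment and a 20.8-fold range in the LSD1 inhibition experiment. With the representative transcripts, the order was the same in both, with HDAC1 highest, followed by KDM1A, HMG20B, HDAC2, RCOR1, ZMYM2, RCOR3 and PHF21A. The experiments gave the same order under 1 of the 4 definitions of length tried, that of the representative transcript. The median level of the members was 47.8 in the knockdown experiment and 33.5 in the LSD1 inhibition experiment, while the medians over all protein-coding genes whose base mean reached 10 were 15.9 (12589 genes) and 12.8 (12563 genes). RCOR3 and PHF21A lay below those medians in both experiments, and the other members lay above them. This split was not computed under the other lengths.

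KDM1A (ENSG00000004487.16, plus strand of chromosome 1, 23019443 to 23083689 on GRCh38) is the catalytic subunit and the target of MC2580. Its base mean was 7648 in the knockdown experiment and 6285 in the LSD1 inhibition experiment. With a representative transcript of 3085 bases in 21 exons, these gave levels of 126 and 93.3, above 90.2% and 87.1% of the protein-coding genes kept. KDM1B, which encodes the second LSD1-type demethylase and does not join CoREST, had levels of 12.3 and 8.77. KDM1A therefore made up 91.1% and 91.4% of the summed level of this pair. KDM1A stayed above KDM1B under every length tried, by 10.2 and 10.6 times with the representative transcripts and by 2.14 and 2.22 times with the union of exons.

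The CoREST scaffolds link LSD1 to the deacetylases and to the nucleosome. RCOR1 (ENSG00000089902.10, plus strand of chromosome 14, 102592649 to 102730561) had base means of 4564 and 3099, or levels of 40.5 and 24.7, in the knockdown and the LSD1 inhibition experiment. RCOR3 (ENSG00000117625.13, plus strand of chromosome 1, 211258377 to 211316385) had base means of 1161 and 1165, or levels of 13.2 and 11.9. The remaining paralog, RCOR2, which is not among the 8 members, had base means of 345 and 427 and levels of 6.03 and 6.71. RCOR1 was the main CoREST transcript in both experiments, with 67.7% of the summed level of the family in the knockdown experiment and 57.0% in the LSD1 inhibition experiment. RCOR1 exceeded RCOR3 by 3.06 and 2.07 times per length. The summed level of the CoREST genes was 0.472 and 0.464 times that of KDM1A, and 0.886 and 0.871 times with the longest transcripts. This proportion turned over with the union of exons, to 2.34 and 2.24, and per coding length, to 1.39 and 1.30.

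HDAC1 and HDAC2 are close paralogs that remove acetyl groups from histone tails and serve several corepressor complexes. Their base means were nearly equal. HDAC1 (ENSG00000116478.12, plus strand of chromosome 1, 32292083 to 32333635) had 10686 in the knockdown and 8942 in the LSD1 inhibition experiment, and HDAC2 (ENSG00000196591.12, minus strand of chromosome 6, 113933028 to 114011308) had 10515 and 8989. Per length they stood apart, at levels of 257 and 193 for HDAC1 against 55.1 and 42.3 for HDAC2, a ratio of HDAC2 to HDAC1 of 0.214 and 0.219. This contrast rests on the annotated transcript. The representative HDAC2 transcript has 9737 bases, of which 15.0% are coding, whereas that of HDAC1 has 2118 bases, of which 68.3% are coding. Per coding length, which is 1464 bases for HDAC2 and 1446 bases for HDAC1, the ratio was 0.972 and 0.993. How much of the long HDAC2 transcript is used in NB4 cells was not tested, so these data do not set the level of HDAC2 relative to HDAC1.

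Among the other class I deacetylases, HDAC3, the enzyme of the NCoR complex, had levels of 124 in both experiments, and HDAC8 had levels of 38.2 and 35.9. HDAC1 held 54.2% and 48.9% of the summed level of the 4 genes, and HDAC2 held 11.6% and 10.7%. Per coding length HDAC2 stood above HDAC3, at 185 and 145 against 94.2 and 96.4. Few reads were assigned to copies of HDAC1 elsewhere in the genome, where the pseudogene HDAC1P2 had base means of 0.372 and 0.319 and HDAC1P1 was at 0 in both. HDAC2 shares 69 exonic bases with the antisense transcript HDAC2-AS2, which had base means of 18.8 and 18.4.

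The accessory subunits covered the widest part of the order. HMG20B (ENSG00000064961.19, plus strand of chromosome 19, 3572777 to 3579088), an HMG-box protein also called BRAF35, had base means of 2100 and 2971 and levels of 67.6 and 85.8, the third place in both experiments with the representative transcripts. In the knockdown experiment it stood below HDAC2 under each other length. In the LSD1 inhibition experiment it came directly after HDAC1 with the longest transcripts and the union of exons. HMG20B shares 369 exonic bases with MFSD12 on the opposite strand, whose base means were 2842 and 3973. Since the library kit does not mark strand, reads from the shared bases cannot be assigned to either gene with certainty.

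PHF21A (ENSG00000135365.15, minus strand of chromosome 11, 45929319 to 46121454), also called BHC80, encodes a PHD finger protein that binds histone H3 unmethylated at lysine 4. It was the lowest of the members in both experiments, with base means of 1670 and 1516 and levels of 11.4 and 9.31. Its paralog PHF21B was nearly silent, with a base mean of 0.535 in the knockdown experiment and listed at 0 in the LSD1 inhibition experiment. ZMYM2 (ENSG00000121741.16, plus strand of chromosome 13, 19958677 to 20091829), a zinc finger protein also called ZNF198, had base means of 3508 and 2477 and levels of 24.1 and 15.3. It was below the 2 related genes listed here, ZMYM4 (levels of 28.1 and 19.7) and ZMYM3 (46.2 and 39.5), under each length tried. Other genes of the ZMYM family were not analysed here.

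GSE1 (ENSG00000131149.19, plus strand of chromosome 16, 85169525 to 85676204) had a base mean of 2963 in the knockdown experiment, where 4 of the 6 pooled libraries carried a hairpin against it, and of 4441 in the LSD1 inhibition experiment. Its representative transcript of 7385 bases gave levels of 20.5 and 27.5. With these lengths GSE1 stood between ZMYM2 and RCOR3 in the knockdown experiment and between HDAC2 and RCOR1 in the LSD1 inhibition experiment. Its place moved with other lengths, to above ZMYM2 in the knockdown experiment with the longest transcripts (26.4 against 22.8) and to below RCOR1 in the LSD1 inhibition experiment with the union of exons (27.6 against 41.6). Relative to KDM1A, the level of GSE1 was 0.162 in the knockdown and 0.295 in the LSD1 inhibition experiment with the representative transcripts, 0.304 and 0.554 with the longest transcripts, 0.279 and 0.509 per coding length, and 0.531 and 0.968 with the union of exons.

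The experiments differ in transduction and treatment time, and their tables were normalized apart, so the next values compare experiments and not conditions. Each base mean was divided by the sum of its table, and the log2 ratio of the LSD1 inhibition over the knockdown experiment was taken, without any length. Of 10916 protein-coding genes whose base mean reached 50 in both tables, 4.20% differed by more than 2-fold, and 0 of the 8 members did. There was no test behind these values. The ratio was positive for 1 member and negative for 7, with a median of -0.26, beside a median of -0.09 (SD over genes 0.47) for all genes kept. Each of the 8 members lay between the 5th and 95th percentiles of all genes, which were -0.89 and 0.60, and 5 lay between the quartiles.

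HMG20B had a ratio of 0.48, at the 91.0th percentile of all genes. RCOR1 at -0.58 (13.7th percentile) and ZMYM2 at -0.53 (16.4th percentile) stood at the other end. KDM1A at -0.31, HDAC1 at -0.28 and HDAC2 at -0.25 were close to one another. PHF21A had -0.16 and RCOR3 had -0.02. When each table was scaled to its median gene instead, every ratio shifted by 0.13, which turned RCOR3 to 0.11 and left the sign of the other members. GSE1 had a ratio of 0.56, or 1.47-fold, at the 93.7th percentile.

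The ratio also moved with properties of the transcripts. Across 10904 genes with a representative transcript, Spearman's rho between the ratio and transcript length was -0.43, and between the ratio and transcript GC content it was 0.38. These are correlations across genes of the same pooled libraries and are given as a description. The median ratio was 0.17 in the shortest quartile of transcripts and -0.34 in the longest quartile. HMG20B, with 1585 bases, belongs to the shortest quartile, while RCOR1, ZMYM2, HDAC2 and PHF21A belong to the longest. Relative to the median of their own quartile, the ratios of the members ranged from -0.27 for KDM1A to 0.31 for HMG20B, and 4 were positive and 4 negative. Relative to genes of the same quartile of GC content, 3 were positive and 5 negative, so the tally of 1 against 7 did not hold under either comparison. GSE1, which also belongs to the longest quartile, stood 0.90 above its median. The part of length and GC content in these ratios was not tested.

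The genes of related complexes gave a scale for the members. Of the 11 NuRD genes, which form another HDAC1 and HDAC2 complex with a chromatin remodeler, all reached a base mean of 10, and their levels ran from 2.56 for GATAD2B to 235 for RBBP7, with a median of 61.0 in the knockdown experiment. In the LSD1 inhibition experiment the same genes ran from 0.802 to 188 with a median of 77.1. The 11 genes listed for the SIN3 complex had medians of 33.8 and 23.8. The lowest was ING2 at 10.8 in the knockdown experiment and ARID4B at 8.30 in the LSD1 inhibition experiment. The highest in the knockdown experiment was SAP18 at 201, with BRMS1 at 196. In the LSD1 inhibition experiment BRMS1 and SAP18 were level at 229. The 3 genes of MiDAC, a mitotic deacetylase complex, ranged from MIDEAS at 24.7 and 16.3 to DNTTIP1 at 103 and 92.7. The 6 NCoR genes, which work with HDAC3, ranged from TBL1XR1 at 16.1 and 14.2 to HDAC3 at 124 and 124. The median of the 8 members (47.8 and 33.5) fell between those of the SIN3 and NuRD lists in both experiments. It was close to that of MiDAC (48.8 and 33.2) and below that of NCoR (65.3 and 47.9). None of these orders was tested. The lists leave out HDAC1 and HDAC2, which are counted among the members, and RBBP4 and RBBP7 are counted with NuRD only. The orders therefore hold only for the lists as drawn up. Medians with the deacetylases added, or with RBBP4 and RBBP7 in another list, were not computed.

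Of the 10 factors that can bring the complex to DNA, 8 reached a base mean of 10 in each experiment. The highest was CTBP1, a corepressor that docks to many zinc finger repressors, at levels of 252 and 324, and the lowest was the neuroendocrine factor INSM1, listed at 0 in both. GFI1, a SNAG-domain transcriptional repressor that takes part in granulocyte development, had levels of 82.4 and 94.6, and GFI1B had 8.04 and 11.4.

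At their annotated start sites the members had more CG dinucleotides than the median protein-coding gene. Over the 250 bases before and 50 bases after the start in RefSeq (GRCh38.p14), the 8 members held 24 to 46 CG dinucleotides with a median of 36.5, beside a median of 22 over 15842 protein-coding genes. PHF21A had the most (46) and HDAC2 the fewest (24, at the 54.0th percentile). The windows of HDAC2 (113971099 to 113971398) and RCOR3 (211259116 to 211259415) lie wholly inside the gene spans given above. Other start sites of these genes were not examined. The 15842 genes were not limited to those expressed in NB4 cells. No measurement of binding or methylation at these windows was used here.

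Most markers of promyelocytes were detected, with 7 of 8 passing a base mean of 10 in each experiment. MPO had levels of 8033 and 11741, while ELANE was near 0, at base means of 1.10 and 3.87. Summed levels of the promyelocyte list were 8780 and 12810, against 64.1 and 57.1 for T cell, 6.37 and 5.58 for B cell, 46.9 and 33.6 for epithelial, 0.949 and 0 for erythroid and 0.135 and 0.104 for fibroblast markers. The promyelocyte sum came mostly from MPO. The T cell sum came almost wholly from CD3D, at 63.0 and 56.7, while CD3E had base means of 1.55 and 2.98. In the knockdown experiment the promyelocyte marker AZU1, at a level of 40.6, stood below CD3D. The epithelial sum came from EPCAM and KRT18, with CDH1 at 0 and 0.00817, and HBA1 was at 0 in both experiments.

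The levels depended on which transcript length was used. HDAC1 was the highest member under the representative transcript, the longest transcript, the union of exons and the coding length, in both experiments. Per coding length it was nearly level with HDAC2, at 190 and 146 against 185 and 145. KDM1A moved from a level of 126 with the representative transcript to 87.1 with the longest transcript and 38.4 with the union of all annotated exons, which span 18325 bases. PHF21A was the lowest member except per coding length, where RCOR3 was the lowest in the knockdown experiment and ZMYM2 in the LSD1 inhibition experiment.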

How the data were processed

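Per the labels and the methods of the study, libraries were made with the TruSeq RNA v2 kit, and the authors aligned them to hg38 with STAR (2.7), used RSEM to quantify genes and normalized with DESeq2. The deposited signal values used here are base means, in which counts were divided by the size factor of their library and averaged over the experiment by the authors. The knockdown table repeats this column with identical values, and 1 copy was read. The other columns hold the authors' own comparisons (log2 fold changes, standard errors, Wald statistics and p-values) and were not used. The planned count tests were not run, since they need counts per library. No depth, interval or test over replicates was therefore computed, and pooled means give no precision. The study calls its replicates biological, which the labels do not state.

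Stable identifiers were matched to GENCODE release 44 on GRCh38, which held 60261 of the 60603 genes. Lengths were those of the Ensembl canonical transcript, and the alternatives were the longest transcript, the union of exons and the coding length. Percentiles were taken over protein-coding genes whose base mean reached 10, and ratios between experiments over those that reached 50 in both. MIDEAS was matched by its identifier, as the tables list an older symbol. Members and gene lists were chosen with earlier results of these data known. The genes named were all members, GSE1, the paralogs, and the highest and lowest gene of each other list, apart from 2 genes of these lists that are not reported here. GFI1, GFI1B, RBBP4, single marker genes and overlapping genes were named after their values were seen. Python 3.11.15, numpy 2.4.6 and pandas 2.3.3 were used.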

Additional observations from a re-analysis of the deposited data

How the results depend on the processing

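No paired analysis was possible because the values used are pooled means without a value per library, and for the same reason the fits with another tool, without a filter and without 1 replicate were not run. With no spread over samples, a value was called stable when it moved by at most 1.5 times. The length definition moved the results most. Per coding length, the ratio of HDAC2 to HDAC1 was 0.972 in the knockdown and 0.993 in the LSD1 inhibition experiment. With the union of exons, the ratio of RCOR1 to RCOR3 was 5.77 and 3.90. Of the 8 members, 4 held their place in the order with the union of exons in each experiment, 2 (knockdown) and 4 (LSD1 inhibition) did per coding length, and 4 did with the longest transcript in the LSD1 inhibition experiment. Of the 18 levels of the members and GSE1, 6 moved with the union of exons, 8 per coding length and 0 with the longest transcript. The 9 ratios between experiments moved by less than that with 1 added to each base mean, with scaling to the median gene and relative to genes of the same quartile of length or GC content, the last a comparison chosen after seeing the data. This limit is too wide to show that the ratios are stable. The largest, that of RCOR1, was itself 1.496-fold, so any of them could fall to 0 within it. Signs did change, as for RCOR3 with scaling to the median gene. Relative to genes of its length quartile, HDAC2 went from -0.25 to 0.09. The 48 percentiles under other minimums or without a length stayed within 1.5 times, a limit that high percentiles cannot pass upward because percentiles have a ceiling. Within it, HDAC2 moved from 77.5 to 94.7 and PHF21A from 42.9 to 60.6 without a length in the knockdown experiment. The count of members past 2-fold stayed at 0 under each alternative run. The lower minimum and the added 1 could not change that count, as every member had a base mean of at least 1161.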
